A study of Homo sapiens with 2 samples.

Results

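The epidermal differentiation complex is a gene-dense stretch of human chromosome 1q21. Its peaks of acetylated histone H4 lysine 5 (H4K5ac) were taken as every peak of chromosome 1 whose summit lay in a window of 1.85 Mb (hg38), which opens 82.9 kb outside S100A10 and closes 22.0 kb inside INTS3. That rule gave 223 of the 258195 peaks in the hypoxia list and 115 of the 120033 peaks in the normoxia list. The fold given with a peak is the authors' enrichment over local background, which describes a peak within its own list and is not read as a change between libraries. At the S100A10 end, the closest summits inside the window lay 9822 bp from the boundary in hypoxia, at a fold of 12.9, and 9864 bp in normoxia, at a fold of 9.40. The closest outside lay 1692 bp away in hypoxia, at a fold of 3.60, and 1467 bp away in normoxia, at a fold of 3.05. At the INTS3 end, the closest summits inside lay 3554 bp away in hypoxia, at a fold of 4.95, and 9 bp away in normoxia, at a fold of 2.57. The closest outside lay 3438 bp away in hypoxia, at a fold of 3.36, and 25814 bp away in normoxia, at a fold of 4.24.

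H4K5ac was mapped by chromatin immunoprecipitation and sequencing in FaDu, an established head and neck cancer cell line. There was 1 library from cells kept in 1% oxygen for 18 h (hypoxia) and 1 from cells kept in normoxia. The shared culture protocol also describes lentiviral knockdown of METTL4, which neither sample's labels list. The antibody is H4K5ac in the sample labels and another acetylated lysine in the series design text, and the sample labels were followed. With 1 library per condition, no difference below has a replicate check and no test between conditions was possible. Intervals are 95% and cover counting error only.

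The complex holds families of genes that surface epithelia use late in differentiation. Keratinocytes that leave the basal layer switch on involucrin, loricrin, the small proline-rich (SPRR) proteins and the late cornified envelope (LCE) proteins, which transglutaminases crosslink into the cornified envelope, and the filaggrin (FLG) family, which packs keratin filaments. S100 genes at both ends encode small calcium-binding proteins, several of them antimicrobial or secreted in inflamed skin. H4K5ac is a mark of active promoters and enhancers. AP-1 factors are known regulators of involucrin, loricrin and SPRR genes in keratinocytes, through promoter motifs of the kind searched for here.

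Of a list of 10 squamous epithelial genes that included TP63, KRT5 and KRT14, 10 carried a peak at a gene end in hypoxia and 9 in normoxia, with TP63 lacking one in normoxia. Of 4 genes of blood cells and endothelium, 3 carried one in hypoxia (CD3E, PECAM1 and CDH5) and 0 in normoxia. Of 4 late epidermal genes, 3 carried one in hypoxia (LORICRIN, KRT1 and KRT10) and 2 in normoxia (LORICRIN and KRT10), and FLG had none. Among all protein-coding genes, 81% carried one in hypoxia and 70.4% in normoxia. The hypoxia list was longer than the normoxia list genome-wide, at 2.15 (2.14 to 2.17) hypoxia peaks for each normoxia peak outside the complex. Read totals were not stated. Backgrounds in the peak lists put hypoxia reads at 1.18 times normoxia reads, or at 1.04 times if fragment lengths were equal.

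The 6 promoters below show what the results turn on, each as 300 bases from RefSeq (GRCh38.p14), 250 before to 50 from the transcript start. CHTOP, S100A13 and S100A11 had the highest promoter-peak folds among the listed genes, SPRR1A was the only SPRR promoter of the 8 in the RefSeq table with a peak, and IVL and LORICRIN are the classical late genes, whose promoters had no peak in either list. Capitals mark TGANTCA, bound by AP-1. They also mark TATAAA, a form of the TATA box, and other forms of the box were not searched for. The third motif is ACGTG, the core of the hypoxia response element. Both strands were searched. No capitalised stretches overlapped.
CHTOP, chr1:153633816-153634115, plus strand: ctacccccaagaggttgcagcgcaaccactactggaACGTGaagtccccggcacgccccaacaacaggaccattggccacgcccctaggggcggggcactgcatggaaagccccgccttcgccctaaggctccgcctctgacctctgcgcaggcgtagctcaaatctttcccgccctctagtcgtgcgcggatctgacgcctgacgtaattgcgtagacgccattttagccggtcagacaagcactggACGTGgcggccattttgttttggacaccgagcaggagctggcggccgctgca
S100A13, chr1:153634312-153634611, minus strand: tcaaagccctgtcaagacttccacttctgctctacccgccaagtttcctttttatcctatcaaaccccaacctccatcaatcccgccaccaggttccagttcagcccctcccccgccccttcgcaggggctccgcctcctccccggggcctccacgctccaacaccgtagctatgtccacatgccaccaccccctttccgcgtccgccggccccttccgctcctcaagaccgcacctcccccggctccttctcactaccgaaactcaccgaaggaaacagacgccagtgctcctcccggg
S100A11, chr1:152036955-152037254, minus strand: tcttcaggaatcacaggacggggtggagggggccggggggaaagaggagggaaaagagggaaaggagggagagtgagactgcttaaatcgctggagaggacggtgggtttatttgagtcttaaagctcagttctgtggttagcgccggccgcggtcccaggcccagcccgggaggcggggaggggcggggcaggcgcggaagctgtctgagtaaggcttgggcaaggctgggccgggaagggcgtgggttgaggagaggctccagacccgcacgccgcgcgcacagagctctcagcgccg
IVL, chr1:152908296-152908595, plus strand: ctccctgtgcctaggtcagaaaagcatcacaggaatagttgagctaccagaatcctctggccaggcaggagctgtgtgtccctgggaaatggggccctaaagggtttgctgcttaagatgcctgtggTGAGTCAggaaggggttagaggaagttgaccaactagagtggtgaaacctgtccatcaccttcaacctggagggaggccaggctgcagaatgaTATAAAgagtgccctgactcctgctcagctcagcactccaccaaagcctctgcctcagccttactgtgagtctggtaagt
LORICRIN, chr1:153259437-153259736, plus strand: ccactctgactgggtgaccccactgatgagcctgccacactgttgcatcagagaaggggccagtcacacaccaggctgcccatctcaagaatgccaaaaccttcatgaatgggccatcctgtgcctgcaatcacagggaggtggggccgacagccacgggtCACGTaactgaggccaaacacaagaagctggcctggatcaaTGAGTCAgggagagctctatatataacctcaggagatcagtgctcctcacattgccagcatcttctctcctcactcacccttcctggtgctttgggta
SPRR1A, chr1:152983831-152984130, plus strand: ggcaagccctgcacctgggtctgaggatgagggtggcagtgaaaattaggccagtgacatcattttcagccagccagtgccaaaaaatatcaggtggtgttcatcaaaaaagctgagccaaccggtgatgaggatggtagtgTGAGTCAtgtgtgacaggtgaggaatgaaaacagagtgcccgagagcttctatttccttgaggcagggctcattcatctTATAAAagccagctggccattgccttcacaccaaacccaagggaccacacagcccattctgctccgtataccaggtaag

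The late genes carried the AP-1 letters TGAGTCA, 123 bases before the transcript start in IVL, 48 in LORICRIN and 108 in SPRR1A. IVL and SPRR1A also had TATAAA, 30 and 29 bases before the start. The 3 promoters with the highest folds had neither. CHTOP had ACGTG at 214 and at 2 bases before the start, and LORICRIN had CACGT 89 bases before it. A match describes the letters in the window and not a bound site.

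The complex held more peaks in hypoxia than in normoxia, by a factor whose interval included that of the genome. Its hypoxia-to-normoxia peak number ratio was 1.94 (1.54 to 2.45), against 2.15 (2.14 to 2.17) in the rest of the genome and 2.06 in the rest of chromosome 1. Of 1318 windows of 1.85 Mb with at least 20 normoxia peaks, 502 had a lower ratio, and the quartiles of all windows were 1.79 and 2.45. Peak density was 120.5 per Mb in hypoxia and 62.2 per Mb in normoxia. Peaks covered 5.18% of the complex in hypoxia and 3.50% in normoxia. Median peak width was 335 bp in hypoxia and 426 bp in normoxia.

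Most normoxia peaks of the complex were met by a hypoxia peak, whereas most hypoxia peaks of the full list had no normoxia counterpart. A peak of the other list overlapped 39.9% (33.4 to 46.7) of the hypoxia peaks and 79.1% (70.6 to 86.1) of the normoxia peaks, against 32.7% of hypoxia and 68.7% of normoxia peaks in the rest of the genome. That left 134 hypoxia peaks and 24 normoxia peaks without a counterpart. The hypoxia share turned to a majority with a counterpart when lists were of equal length, at 55.2% (74 of 134), and among strong peaks of both lists, at 62.5% (35 of 56). Overlap shares of the rest of the genome at these settings are not given here, so this change is not read as a trait of the complex. Strong peaks (−log10 q-value 10 or more) numbered 56 in hypoxia against 39 in normoxia. Their ratio was 1.44 (0.937 to 2.22) in the complex and 1.63 in the rest of the genome. They made up 25.1% (19.6 to 31.3) of the hypoxia peaks and 33.9% (25.3 to 43.3) of the normoxia peaks of the complex. The interval of the strong ratio includes 1 and that of the rest of the genome.

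**Figure D1:**
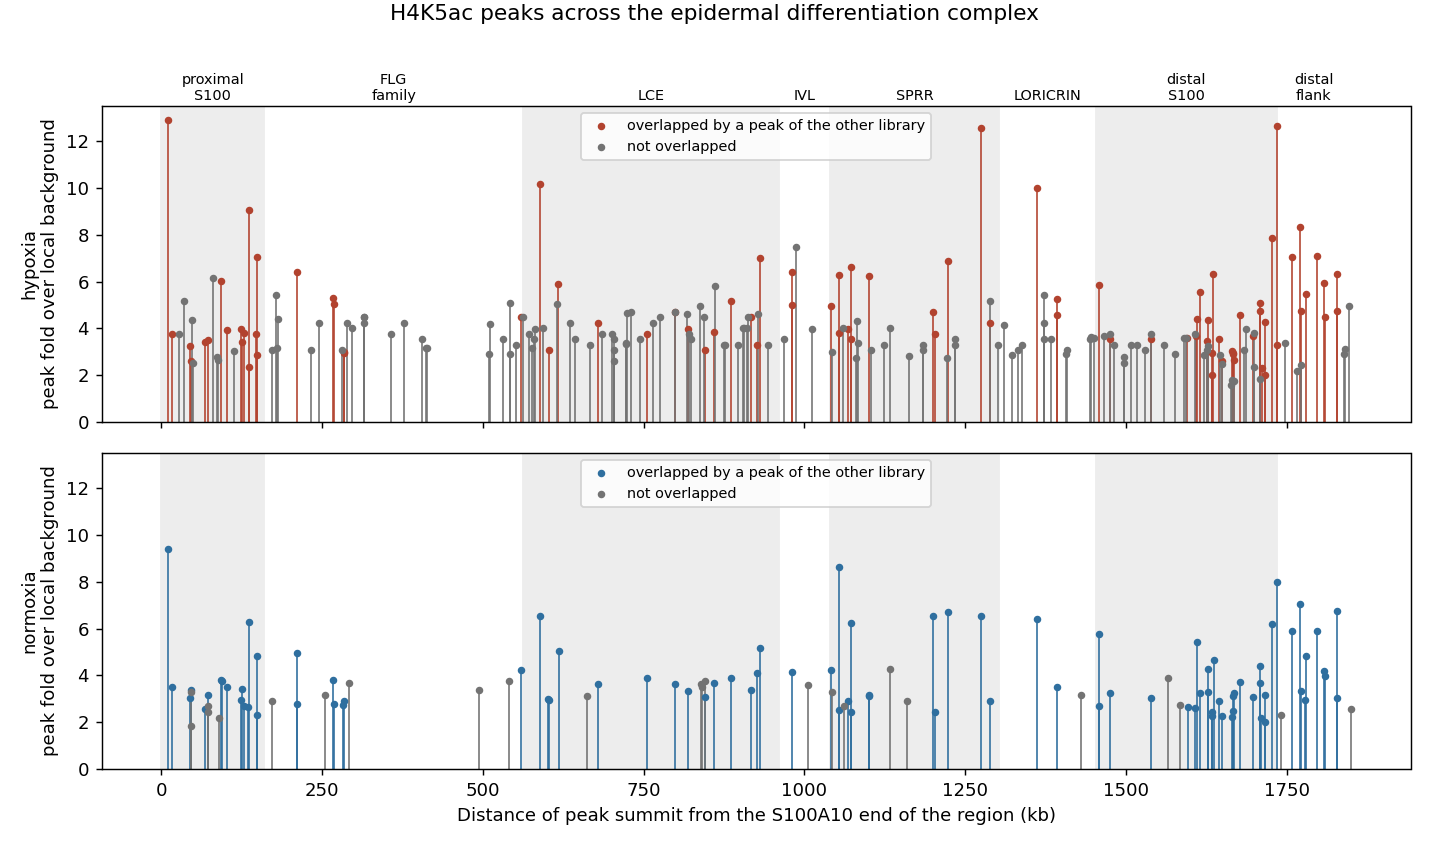
Each stem is a peak of the complex, placed by the distance of its summit from the S100A10 end (kb), with the fold over local background as its height, for the hypoxia list above and the normoxia list below. Coloured stems are overlapped by a peak of the other list and grey stems are not, and of the 134 grey hypoxia stems 38 lie in the LCE segment, 23 in the FLG family segment and 13 in the LORICRIN segment.

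Comparison with the keratin clusters, whose genes are also switched during keratinocyte differentiation, gave no ordering beyond counting error. The type II cluster (27 genes, chr12:52168996-52952906) had 158 hypoxia and 70 normoxia peaks, a ratio of 2.26 (1.69 to 3.04). The type I cluster (28 genes, chr17:40654665-41624575) had 145 hypoxia and 84 normoxia peaks, a ratio of 1.73 (1.31 to 2.29). Both intervals overlap that of the complex.

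Along the complex the ratio was lowest beside S100A10 and highest around LORICRIN and the LCE genes. The proximal S100 segment had 24 hypoxia and 21 normoxia peaks, a ratio of 1.14 (0.610 to 2.16). The FLG family segment had 29 hypoxia and 12 normoxia peaks, a ratio of 2.42 (1.20 to 5.20). The LCE segment had 51 hypoxia and 18 normoxia peaks, a ratio of 2.83 (1.63 to 5.15). The small IVL segment had 5 hypoxia and 2 normoxia peaks, too few to place its ratio of 2.50 (0.409 to 26.3). The SPRR segment had 28 hypoxia and 17 normoxia peaks, a ratio of 1.65 (0.871 to 3.21). The LORICRIN segment had 16 hypoxia and 3 normoxia peaks, a ratio of 5.33 (1.53 to 28.6). The distal S100 segment had 53 hypoxia and 29 normoxia peaks, a ratio of 1.83 (1.14 to 2.98). The distal flank from CHTOP to INTS3 had 17 hypoxia and 13 normoxia peaks, a ratio of 1.31 (0.598 to 2.93). Neighbouring intervals overlapped throughout, and the rest-of-genome ratio of 2.15 lay inside each of them. With the hypoxia list shortened by rank to the length of the normoxia list, every segment's interval included 1. The ratio was 2.67 (0.640 to 15.6) around LORICRIN, with 8 hypoxia and 3 normoxia peaks. It was 2 (0.287 to 22.1) in the IVL segment, 1.56 (0.831 to 2.99) in the LCE segment, 1.25 (0.546 to 2.92) in the FLG family segment, 1.17 (0.693 to 1.99) in the distal S100 segment and 1 (0.427 to 2.34) in the distal flank. Below 1 lay the proximal S100 segment, at 0.857 (0.431 to 1.69), and the SPRR segment, at 0.824 (0.376 to 1.78).

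**Figure D2:**
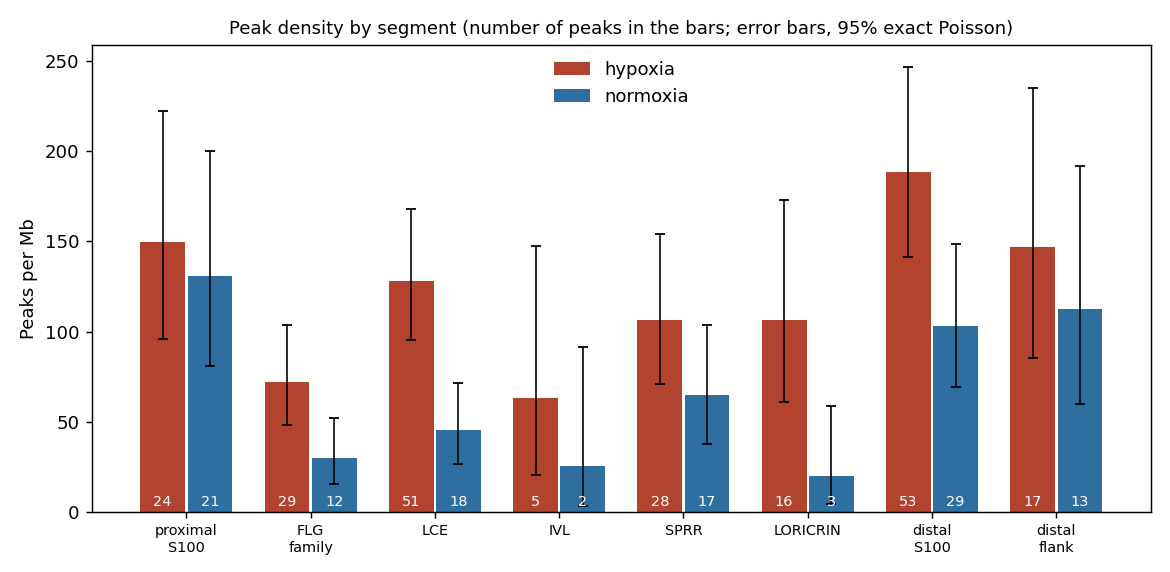
Bars give peaks per Mb in each segment for hypoxia (left bar) and normoxia (right bar), with the number of peaks written at the foot and 95% exact Poisson intervals. Density in the proximal S100 segment was 149 per Mb in hypoxia and 131 per Mb in normoxia, and in the LCE segment 128 per Mb in hypoxia and 45.2 per Mb in normoxia.

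Peaks of the LCE segment covered fewer reads than those of the distal S100 segment, on a lower local background. In the LCE segment the median pileup, the number of reads covering a summit, was 16 in hypoxia and 16 in normoxia. In the distal S100 segment it was 36 in hypoxia and 41 in normoxia, and in the distal flank 71 in hypoxia and 47 in normoxia. The median local background in the LCE segment was 3.24 reads in hypoxia and 3.47 in normoxia, against 8.36 in hypoxia and 12.2 in normoxia in the distal S100 segment. The median fold therefore ran the other way, at 3.98 in hypoxia and 3.64 in normoxia for the LCE segment and at 3.30 in hypoxia and 3.14 in normoxia for the distal S100 segment. The lowest background of each list was 3.24 reads in hypoxia and 3.13 in normoxia. On it, the list's weakest peaks held 9 reads in either library, and the weakest within the complex 10 in hypoxia and 11 in normoxia. The hypoxia-only gene-end peaks of the LCE segment held 13 to 45 reads, and those of the SPRR segment 12 and 14.

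Genes with a peak within 1000 bp of the first or last base of their span were called marked. Of 66 listed protein-coding genes, 44 (66.7%, 54.0 to 77.8) were marked in hypoxia and 25 (37.9%, 26.2 to 50.7) in normoxia, against 81% in hypoxia and 70.4% in normoxia of all 19970 protein-coding genes. All 25 normoxia-marked genes were marked in hypoxia too. The other 19 hypoxia-marked genes were marked in hypoxia only, as were 11.7% of all genes, and 0 were marked in normoxia only, against 1.08% of all genes. Set only against genes with no normoxia gene-end peak, where a hypoxia-only mark is possible, 19 of 41 listed genes had one in hypoxia (46.3%, 30.7 to 62.6), and 39.6% of all such genes did.

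The LCE genes made up most of those 19. LCE proteins are small, cysteine-rich components laid down last in the cornified envelope. In the LCE segment 17 of 21 genes were marked in hypoxia and 4 in normoxia, and 13 of the 17 without a normoxia peak (76.5%, 50.1 to 93.2) had one in hypoxia. From the FLG family to LORICRIN without the LCE segment, 4 of 20 did (20%, 5.73 to 43.7), so the interval of the LCE segment lay above the 39.6% of all genes and that of its neighbours included it. With equal list lengths, 8 of 17 LCE segment genes (47.1%, 23 to 72.2) and 1 of 20 in the neighbouring segments had one, against 19.2% of all such genes. Among peaks with a −log10 q-value from 5 upward they were 12 of 21 (57.1%, 34.0 to 78.2) and 2 of 21, against 25.6% of all such genes. From 10 upward the contrast was gone, with 2 of 21 LCE segment genes (9.52%, 1.17 to 30.4) and 0 of 22 neighbours, against 17.3% of all such genes. This division was chosen after the values were seen, and it has no replicate check. Its intervals treat neighbouring genes, many of them close copies, as independent, so they are not a test of the LCE segment against all genes.

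**Figure D3:**
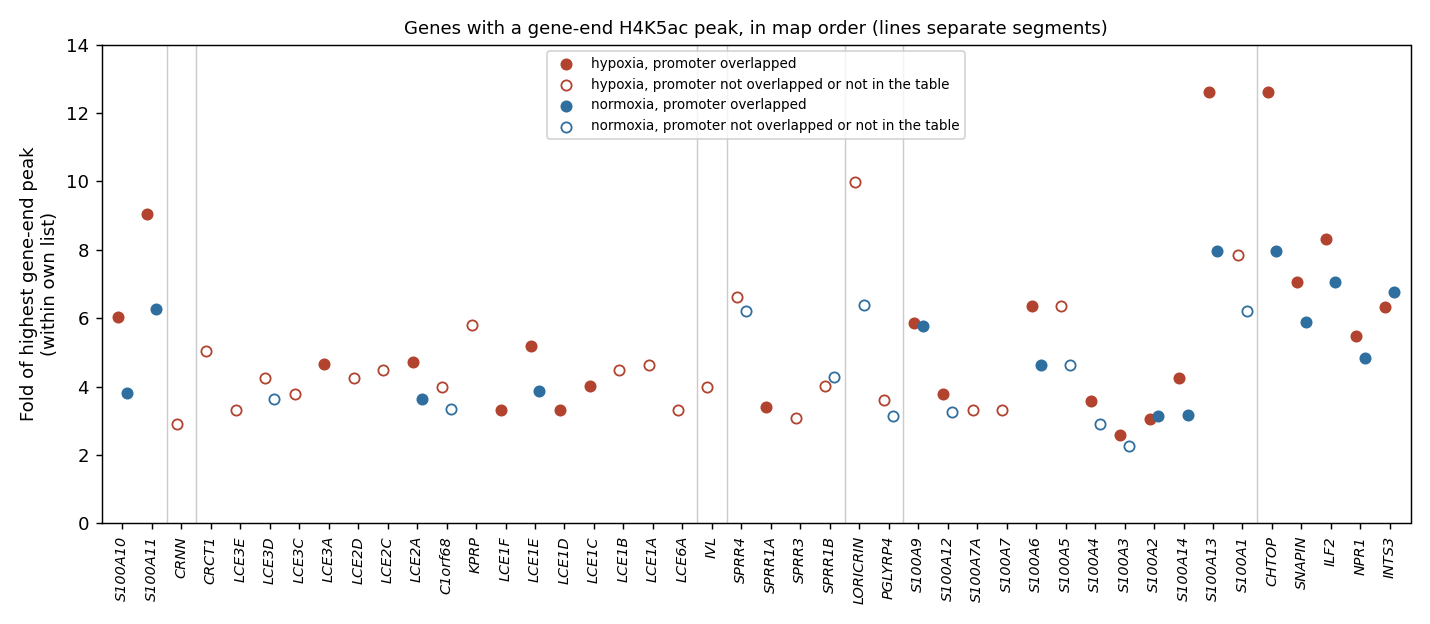
Points give the fold of the highest gene-end peak of each marked gene in map order, hypoxia left of normoxia, filled where a peak also overlaps the 300-base promoter. In the LCE segment the points lie between 3.30 and 5.79 in hypoxia, with 4 normoxia points between 3.35 and 3.88, and the S100 and flank genes reach 12.6 in hypoxia and 7.97 in normoxia.

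Among the LCE1 genes, 6 of 6 were marked in hypoxia and 1 in normoxia. LCE1E, the gene marked in both, had a peak over its start at a fold of 5.19 (21 reads) in hypoxia and 3.88 (15 reads) in normoxia. LCE1A, LCE1B, LCE1C, LCE1D and LCE1F had a hypoxia peak only, with folds between 3.30 for LCE1D and LCE1F and 4.62 for LCE1A. The summits in LCE1F and LCE1D lay 3 bp before and 128 bp after the start of the gene span. Of the LCE2 genes, 3 of 4 were marked in hypoxia, LCE2A at 4.72 (19 reads), LCE2C at 4.48 and LCE2D at 4.24. LCE2A alone was marked in normoxia, at 3.64 (14 reads), and LCE2B had no peak in either list.

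Of the LCE3 genes, which are induced in wounded and psoriatic skin, 4 of 5 were marked in hypoxia. LCE3D had a fold of 4.24 (17 reads) in hypoxia and 3.64 (14 reads) in normoxia. LCE3A, LCE3C and LCE3E had hypoxia peaks only, at 4.66, 3.77 and 3.30, and LCE3B had none. Of LCE4A, LCE5A and LCE6A, LCE6A was marked in hypoxia, at 3.30. Many LCE and SPRR2 genes are close copies of others in their group, so how reads were placed among them is uncertain.

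The gene-end peaks of the LCE segment with the highest −log10 q-values were not at LCE genes. KPRP, which encodes a keratinocyte proline-rich protein, carried a hypoxia peak 1060 bp wide at a fold of 5.79 (45 reads, −log10 q-value 19.5), with its summit 2317 bp into a gene of 4032 bp. It had no normoxia counterpart, although a neighbouring peak inside KPRP had 29 reads in hypoxia and 17 in normoxia. CRCT1 carried a hypoxia-only peak at 5.03 (37 reads, −log10 q-value 14.1). C1orf68, named KPLCE in RefSeq, was marked at 3.98 in hypoxia and 3.35 in normoxia.

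LCE gene ends took a larger share of the peaks in hypoxia than in normoxia, within overlapping intervals. Gene-end windows made up 17% of the segment and held 24 of 51 hypoxia peaks (47.1%, 32.9 to 61.5) and 4 of 18 normoxia peaks (22.2%, 6.41 to 47.6). Outside them, the highest fold of the segment belonged to chr1:152488274-152488722, which lies 22321 bp from LCE5A. It reached 10.1 (42 reads) in hypoxia and 6.55 (28 reads) in normoxia.

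The FLG family was sparsely marked. These genes encode large repeat-rich proteins of the granular layer and hair follicle. Of 7 genes, CRNN was marked in hypoxia, at a fold of 2.91 (13 reads), and 0 were in normoxia. FLG itself had no gene-end peak in either list, with 3 hypoxia and 0 normoxia peaks inside its span, the highest at 3.53. HRNR likewise had 3 hypoxia and 0 normoxia peaks inside its span. How reads were placed within the repeats of these genes is also uncertain. TCHH, the trichohyalin gene of the hair follicle, had the strongest peak of the segment, inside the gene at chr1:152110121-152111511 in hypoxia, with a fold of 6.42 (67 reads) in hypoxia and 4.97 (30 reads) in normoxia. The longest stretch of the complex without a peak in either list, 79.6 kb at chr1:152313596-152393205, contained FLG2.

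Involucrin and loricrin carried H4K5ac inside the gene and not at the start. LORICRIN had a fold of 9.97 (75 reads, −log10 q-value 48.7) in hypoxia and 6.39 (35 reads) in normoxia. The hypoxia peak lay at chr1:153260922-153261974, with the summit 1978 bp from the start, at 81.1% of a 2438 bp gene. The pileup ratio of the pair was 2.14 (1.42 to 3.30), the highest among the 69 one-to-one peak pairs of the complex. Peaks that overlapped more than 1 peak of the other list were not paired. The median of one-to-one pairs in the rest of the genome was 1.27. Local background at the LORICRIN pair was 6.62 reads in hypoxia and 4.63 in normoxia. IVL had a hypoxia peak at a fold of 3.98 (20 reads, −log10 q-value 6.13), with the summit 2700 bp from the start, at 80.8% of the gene. No normoxia peak lay inside IVL or within 1000 bp of its ends.

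The neighbours of IVL and LORICRIN had peaks away from gene ends. Inside SMCP, a sperm mitochondrial capsule gene, the highest fold was 6.40 in hypoxia and 4.16 in normoxia. Between SMCP and IVL, a hypoxia-only peak at chr1:152886631-152887134 had a fold of 7.46 (35 reads, −log10 q-value 19.7), the highest fold in the complex among hypoxia peaks without a counterpart. A normoxia-only peak lay nearer IVL, at chr1:152905995-152906488, with its summit 2326 bp before the start of the gene. It had a fold of 3.60 (22 reads, −log10 q-value 5.61). A hypoxia-only peak 10766 bp from LORICRIN, at chr1:153272664-153273321, had a fold of 5.42 (22 reads). PGLYRP4, a peptidoglycan recognition protein gene, was marked at 3.60 in hypoxia and 3.15 in normoxia by different peaks, and LELP1, PRR9 and PGLYRP3 had no gene-end peak.

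SPRR genes, which encode crosslinked bridging proteins of the envelope, were marked in 4 of 10 cases in hypoxia and 2 in normoxia, and none of the 6 SPRR2 genes was. SPRR4 had the highest gene-end fold, 6.63 (34 reads) in hypoxia and 6.22 (36 reads) in normoxia, with the hypoxia summit 3601 bp from the start of its 3825 bp span. SPRR1A had a hypoxia-only promoter peak at 3.39 (14 reads), with the summit 146 bp before the start. SPRR3 had a hypoxia-only peak at 3.07 (12 reads). SPRR1B had 4.01 (16 reads) in hypoxia and 4.27 (18 reads) in normoxia, from peaks that did not overlap.

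The strongest SPRR peaks lay between genes or inside long gene spans. The peak chr1:153174343-153174759, inside the SPRR2G span and at an end of the long noncoding RNA gene LOC101928009, had a fold of 12.5 (59 reads) in hypoxia and 6.52 (29 reads) in normoxia, a pileup ratio of 2.03 (1.28 to 3.29). The highest normoxia fold of the segment was near SPRR5, at chr1:152953894-152954577, where hypoxia had 6.28 (32 reads) and normoxia 8.62 (56 reads). A peak 5169 bp from SPRR2E had fewer reads in hypoxia, 19 against 30 in normoxia, giving a ratio of 0.633 (0.337 to 1.16).

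S100 genes carried the most strongly covered peaks. Of 16 S100 genes, 14 were marked in hypoxia and 12 in normoxia. Among all protein-coding genes 81% were marked in hypoxia and 70.4% in normoxia, the background for the S100 counts below as well. S100A10, the annexin A2 partner, had 265 reads (fold 6.02) in hypoxia and 173 reads (fold 3.81) in normoxia. S100A11, whose product also enters the cornified envelope, had 142 reads (fold 9.04) in hypoxia and 126 (fold 6.26) in normoxia.

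Of the 5 genes from S100A9 to S100A7, which encode calprotectin subunits and antimicrobial proteins, 4 were marked in hypoxia and 2 in normoxia. S100A9 had 60 reads (fold 5.86) in hypoxia and 41 (fold 5.78) in normoxia. S100A12 had a hypoxia-only promoter peak at 3.77 (15 reads) and a shared peak inside the gene, at 3.54 (14 reads) in hypoxia and 3.25 (15 reads) in normoxia. S100A7 and its close copy S100A7A had hypoxia-only peaks of 13 reads each, at 3.30. The S100A8 span, which RefSeq extends over 32552 bp, held 4 hypoxia and 0 normoxia peaks, none at its ends.

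From S100A6 to S100A1, 8 of 9 genes were marked in both libraries. S100A6 had 165 reads (fold 6.34) in hypoxia and 97 (fold 4.64) in normoxia, giving a ratio of 1.70 (1.32 to 2.21), and the same peak marks the far end of S100A5. S100A4, a gene linked to cell motility, had 71 reads (fold 3.57) in hypoxia and 39 (fold 2.92) in normoxia, giving a ratio of 1.82 (1.22 to 2.76). S100A2, a gene of basal epithelial cells, had 4 pairs of peaks from its start outward, on the highest local backgrounds of the complex, up to 76.0 reads in hypoxia and 63.7 in normoxia. In order from the start, the pairs had 233 reads in hypoxia and 144 in normoxia, 226 in hypoxia and 159 in normoxia, 216 in hypoxia and 196 in normoxia, and 188 in hypoxia and 196 in normoxia. Their ratios were 1.62, 1.42, 1.10 and 0.959, and the gene-end peak of highest fold was at 3.04 in hypoxia and 3.14 in normoxia. S100A14 had 132 reads (fold 4.26) in hypoxia and 85 (fold 3.16) in normoxia, giving a ratio of 1.55 (1.17 to 2.06). The median ratio of one-to-one peak pairs in the rest of the genome was 1.27. It lay inside the intervals of S100A4 and S100A14 and below that of S100A6. S100A3 had the lowest gene-end folds of the complex, 2.59 in hypoxia and 2.27 in normoxia. S100A16, the exception, had no gene-end peak but carried peaks inside its span with folds up to 5.10 in hypoxia and 4.41 in normoxia. A RefSeq promoter of S100A16 was overlapped by a peak in both libraries.

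S100A13 and CHTOP, an mRNA export factor gene, lie on opposite strands and their spans overlap at their starts. These starts shared the most deeply covered peak of the complex, chr1:153633992-153634557 in hypoxia. The hypoxia peak had 301 reads (fold 12.6, −log10 q-value 213), against 179 reads (fold 7.97, −log10 q-value 94.1) in normoxia. This hypoxia peak was 566 bp wide, and a further one beside it was 932 bp wide with 75 reads. The normoxia peak, 1750 bp wide, overlapped both. S100A1 was marked from upstream at 7.84 in hypoxia and 6.20 in normoxia. All 5 flank genes were marked in both libraries, ILF2 at 8.31 in hypoxia and 7.07 in normoxia and SNAPIN at 7.05 in hypoxia and 5.88 in normoxia. NPR1, a natriuretic peptide receptor gene, had 5.48 in hypoxia and 4.84 in normoxia. INTS3, an Integrator subunit gene, had 6.32 (100 reads) in hypoxia and 6.75 (107 reads) in normoxia.

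Median read depth at one-to-one peak pairs was lowest, relative to normoxia, in the proximal S100 segment. Across 69 one-to-one pairs of overlapping peaks, the median hypoxia-to-normoxia pileup ratio was 1.23, with quartiles of 0.959 and 1.44, against 1.27, with quartiles of 1.00 and 1.58, for 69508 pairs in the rest of the genome. In the proximal S100 segment the median was 0.906 over 13 pairs, and 12 of the 13 lay below 1.27. The pair at chr1:151946900-151947130, 35879 bp from S100A10, had 35 reads in hypoxia and 78 in normoxia, giving a ratio of 0.449 (0.292 to 0.677). Its neighbour at chr1:151944877-151945210 had 42 reads in hypoxia and 73 in normoxia, giving a ratio of 0.575 (0.384 to 0.852). The exception was the highest fold of the whole complex, chr1:151909095-151910135, with 139 reads (fold 12.9) in hypoxia and 103 (fold 9.40) in normoxia. The peak over the S100A10 start, with 265 reads in hypoxia and 173 in normoxia, was not among the pairs. Its hypoxia peak overlapped more than 1 normoxia peak. Unpaired peaks near the 0.449 pair included chr1:151947577-151948007 in hypoxia (56 reads) and chr1:151946012-151946474 in normoxia (80 reads). The median pair ratio was 1.06 in the FLG family segment (3 pairs) and 1.36 in the LCE segment (12 pairs). It was 1.44 in the SPRR segment (7 pairs) and 1.24 in the distal S100 segment (25 pairs). The median hypoxia-to-normoxia ratio of backgrounds in these pairs was 0.766 in the proximal S100 segment and 0.549 in the FLG family segment. It was 1.04 in the rest of the genome, and the part of local background in the pileups was not tested.

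**Figure D4:**
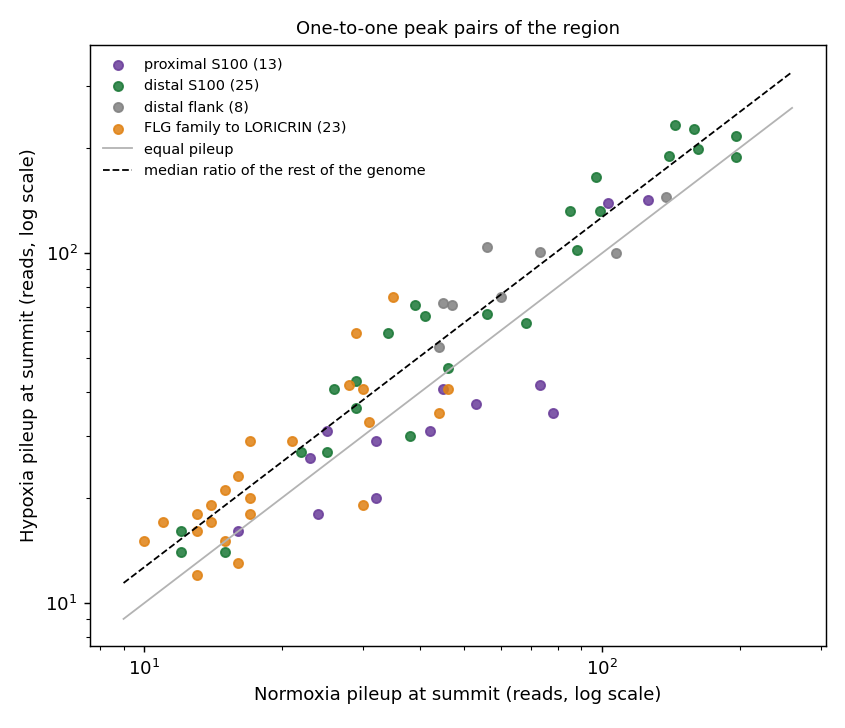
Each point is a one-to-one peak pair of the complex, with reads at the summit in hypoxia (vertical) and normoxia (horizontal) on log scales. The dashed line is the median ratio of the rest of the genome, 1.27, and 12 of the 13 proximal S100 points lie below it.

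Promoter peaks were sparser among the late genes than among the S100 genes. Of 62 listed genes with a promoter in the RefSeq table, 23 (37.1%) had a promoter peak in hypoxia and 15 (24.2%) in normoxia, against 73.9% in hypoxia and 66.7% in normoxia of 15811 genes. A promoter peak in hypoxia only was seen in 8 of the 62, and in 8.58% of all genes. Such a peak is possible only where normoxia had none, which left more room among the listed promoters than among all genes. The shares therefore do not show that promoters of the complex gained peaks more often. From the FLG family to LORICRIN, 7 of 41 promoters had a peak in hypoxia and 2 in normoxia. These were 6 of 19 LCE promoters in hypoxia and 2 in normoxia, SPRR1A in hypoxia, and 0 in the FLG, IVL and LORICRIN segments. Among S100 genes, 11 of 16 had one in hypoxia and 8 in normoxia.

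The position of the gene-end summits followed the same division. Of 23 hypoxia-marked genes of known strand from the FLG family to LORICRIN, the summit was nearer the start in 9 and nearer the other end in 14, and it lay inside the gene in 17. Of 12 in the distal S100 segment, it was nearer the start in 11. Genes of the middle segments are short, so a summit near either end is also close to the other.

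The promoter sequences of the complex differed in composition from those of other genes. Their median was 3 CpG dinucleotides and 54.1% GC in 300 bases, against 22 and 62.5% in 15749 other genes. TATAAA was present in 48.4% of the 62 promoters and 12.2% of the others. TGANTCA was present in 20 (32.3%), against 7.94% of the others, and was spread unevenly, with 6 of 7 FLG family promoters, 6 of 8 SPRR promoters and 0 of 19 LCE promoters holding it. ACGTG was present in 24.2% and in 28.5% of the others, and GGAAG, the ETS core, in 87.1% and in 79.0%. Of the 16 promoters with TGANTCA between the FLG family and LORICRIN, 1 had a peak in hypoxia (SPRR1A, shown above) and 0 in normoxia. The 6 LCE promoters with a hypoxia peak hold none.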

How the data were processed

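The authors deposited 1 narrowPeak list per library, from single-end reads of 75 bp according to the labels. The submitters' processing notes name hg38, MACS2 and SICER, with no versions or settings. Whether an input library was used is not given in the sources used here. For each peak the authors deposited an integer score, the fold enrichment at the summit, −log10 p-values and −log10 q-values, and a summit offset. Fold and q-value are the authors' values and rank or describe peaks within their own list. The score was not used.

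Members and gene lists were chosen with earlier results of these data known. Fold and p-value were solved together for a whole-number pileup and a local background, taking fold as (pileup + 1) / (background + 1) and p as a Poisson tail. Pileups came out whole to within 0.02 in 100.0% of hypoxia and of normoxia peaks. Depth was inferred from the lowest background and narrowest peak (215 bp in hypoxia, 245 bp in normoxia). A shared base (1 bp) counted as overlap between lists. Intervals are exact Clopper-Pearson for shares, and for ratios the same interval of the hypoxia share turned into a ratio. They cover counting error only. Genes and promoters came from RefSeq tables of GRCh38.p14, the assembly hg38 names, with 66 listed protein-coding genes of which 62 matched a promoter. Named genes were every listed gene marked in at least 1 library, with its highest gene-end peak. Promoter counts, which use strand, were added after the data were seen. Python 3.11.15, numpy 2.4.6, pandas 2.3.3, SciPy 1.17.1 and matplotlib 3.10.9 were used, and the scripts were tested on simulated data.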

Additional observations from a re-analysis of the deposited data

How the results depend on the processing

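Of 71 alternatives, 55 stayed within the counting interval of the reported value, or within 1.5 times of it for counts of genes, and 16 moved. Within wide intervals, 5 of the 55 still differed by over 1.5 times, all segment ratios: with lists of equal length 1.25 for the FLG family, 2.67 for LORICRIN and 1.17 for the distal S100 segment, and from a −log10 q-value of 10 upward 3 for LORICRIN and 1 for SPRR. When only peaks with a −log10 q-value from 10 upward were kept, genes marked were 19 in hypoxia and 16 in normoxia, promoters with a hypoxia peak were 13, the overlap share was 62.5% of hypoxia and 87.2% of normoxia peaks, the share of LCE segment genes without a normoxia gene-end peak that had a hypoxia one was 9.52%, and the peak number ratio of the complex was 1.44. From 5 upward the normoxia overlap share was 86.9% and the LCE ratio 7 (28 hypoxia against 4 normoxia peaks). With lists of equal length, the overlap shares were 55.2% of hypoxia and 66.1% of normoxia peaks, that LCE share was 47.1%, and the ratios were 1.17 for the complex, 1.56 for the LCE segment and 0.824 for the SPRR segment, against 1.00 in the rest of the genome. Requiring an overlap over 50% of the shorter peak gave a normoxia overlap share of 70.4%. Overlap shares of the rest of the genome are given for the full lists only, so those at the other settings have no background beside them. The cause of these shifts was not tested, except that a stricter threshold or a shorter list leaves fewer peaks. The IVL segment gave no ratio from a −log10 q-value of 10 upward because normoxia had 0 peaks there and hypoxia 3. No paired analysis was possible because each condition has 1 library. Unknown read totals limit every comparison of peak numbers, and a missing peak at pileups near 10 reads means not detectable at this depth.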

Other observations

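Values are given for 7 long noncoding RNA genes of the complex, which were chosen after their peaks were seen. CCDST, a long noncoding RNA gene that spans FLG and HRNR over 177 kb, held 10 hypoxia peaks with folds up to 4.48 and 1 normoxia peak at 3.67. LOC124904421, in the proximal S100 segment, held 6 hypoxia peaks with folds up to 5.19 and 4 normoxia peaks with folds up to 3.36. LINC01527, beside the SPRR genes, held 2 peaks in each list, with folds up to 4.95 in hypoxia and 4.25 in normoxia. LOC101928034, among the S100 genes, held 3 hypoxia peaks up to 2.87 and 1 normoxia peak at 2.27. LOC101928009, in the SPRR segment, held 3 hypoxia peaks up to 12.5 and 2 normoxia peaks up to 6.52. LOC101927949, near S100A11, held 3 hypoxia peaks up to 7.06 and 2 normoxia peaks up to 4.83. LINC00302, among the LCE genes, held 1 peak in each list, at 3.77 in hypoxia and 3.88 in normoxia.

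Among overlapping peaks of the complex, 9 of 89 hypoxia peaks (10.1%, 4.73 to 18.3) spanned 2 or more normoxia peaks, and 4.70% did in the rest of the genome. Of 91 normoxia peaks, 7 (7.69%, 3.15 to 15.2) spanned 2 or more hypoxia peaks, and 6.99% did in the rest of the genome.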
